A study of Homo sapiens with 10 samples.

Results

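Transforming growth factor-beta (TGF-beta) and bone morphogenetic protein (BMP) signalling is described here through 10 genes: the ligands TGFB1, TGFB2, BMP4 and INHBA, the receptors TGFBR1 and TGFBR2, the transducer SMAD3 with the inhibitor SMAD7, and the response genes ID1 and ID3. They were taken by name from the 61533 genes of the tables, and all 10 were among the 16181 genes that passed the filter on low counts. The RNA-seq libraries were made from the human bladder cancer line T24 and from T24R2, a line derived from T24 that is resistant to the chemotherapy drug cisplatin, with 5 libraries of each collected on day 3. The comparison asks which transcripts differ in level between the sensitive line and the resistant line, and the study set these differences beside m6A RNA methylation, which was not analysed here. Each line is a single model, and T24R2 represents 1 history of drug selection. The sample labels give the same RPMI medium, without the drug, for both lines, whereas the methods of the study describe routine culture of T24R2 with cisplatin, so the line and the exposure to the drug cannot be told apart. The labels number the libraries 1 to 5 in each line and do not say whether they came from separate cultures, so the p-values measure the spread between these libraries, which may be technical.

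In this pathway a secreted dimer brings together a type II receptor and a type I receptor, both serine/threonine kinases, and the activated type I receptor phosphorylates receptor-regulated SMAD proteins. TGF-beta and activin, a dimer of the INHBA product, act mainly through SMAD2 and SMAD3, whereas BMPs act mainly through SMAD1, SMAD5 and SMAD9, and both branches share SMAD4. The inhibitory SMAD6 and SMAD7 are themselves transcribed in response to the signal and switch receptors off, and the ID genes, which encode dominant-negative partners of basic helix-loop-helix factors, are classic early targets of BMP. In epithelial tumours TGF-beta is known both for arresting the cell cycle and for promoting epithelial-mesenchymal transition.

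Total counts ranged from 9257843 to 10840954 per library, and mitochondrial genes took 2.35% to 2.97% of them. Each of the 20 pairs of libraries within a line differed beyond the noise of sampling, with chi-square values of 2.01 to 7.04 per degree of freedom, so all 10 were kept as separate libraries. The lines were far apart: 8309 of 16181 tested genes (51.4%) were called, meaning an adjusted p below 0.05 and an absolute log2 fold change above 0.5 by the quasi-likelihood test of edgeR (Benjamini-Hochberg adjusted), of which 4027 (24.9%) were higher and 4282 (26.5%) lower in T24R2. The balance of calls depended on the scaling: without scaling beyond library size 60.3% of the calls were higher in T24R2, against 48.5% with TMM scaling, and the median over all genes was 0.18 on the log2 scale instead of 0.015. Markers went only partly with a urothelial identity, since 7 of 12 epithelial markers reached 1 CPM (counts scaled to library size) in T24 and 4 in T24R2, and CDH1, UPK1B and UPK3A were at the floor of 3 counts or fewer per library in both lines. The summed epithelial markers ran from 4869 to 5601 CPM in T24 and from 2990.0 to 3191 CPM in T24R2, and 2 of the 8 fibroblast markers reached 1 CPM in T24 (summed 9.61 to 11.9 CPM) and 1 in T24R2 (0.954 to 2.29 CPM). Of 5 endothelial markers 2 reached 1 CPM in T24, mainly CDH5 at 239 CPM, with KDR and TEK at the floor, and their sum of 226 to 278 CPM in T24 was 1.60 to 2.50 CPM in T24R2. The sum of 5 immune markers was at most 2.10 CPM in T24 and 2.88 CPM in T24R2, with CD3E at the floor in both lines. The part of these marker differences in the results that follow was not tested, and in bulk RNA a smaller number of expressing cells and less RNA per cell cannot be told apart.

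Of the 10 genes, 8 were called (all tested genes 51.4%): 2 were higher in T24R2 (all genes 24.9%), TGFB2 and TGFBR1, and 6 were lower (all genes 26.5%), INHBA, ID3, TGFB1, BMP4, ID1 and SMAD3. TGFBR2 passed the adjusted p threshold but not the minimum fold change, and SMAD7 passed neither. The libraries of the 2 lines did not overlap for 9 of the 10 genes, as for 61.2% of all tested genes, and the median log2 fold change of the 10 was −0.65 beside 0.015 over all genes. For each of those 9 genes an exact two-sided permutation test of 5 against 5 libraries gave p = 0.00794, the smallest value this design allows. With so many genes apart between the lines, the counts describe these 10 genes and do not mark them out from the transcriptome.

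**Figure D1:**
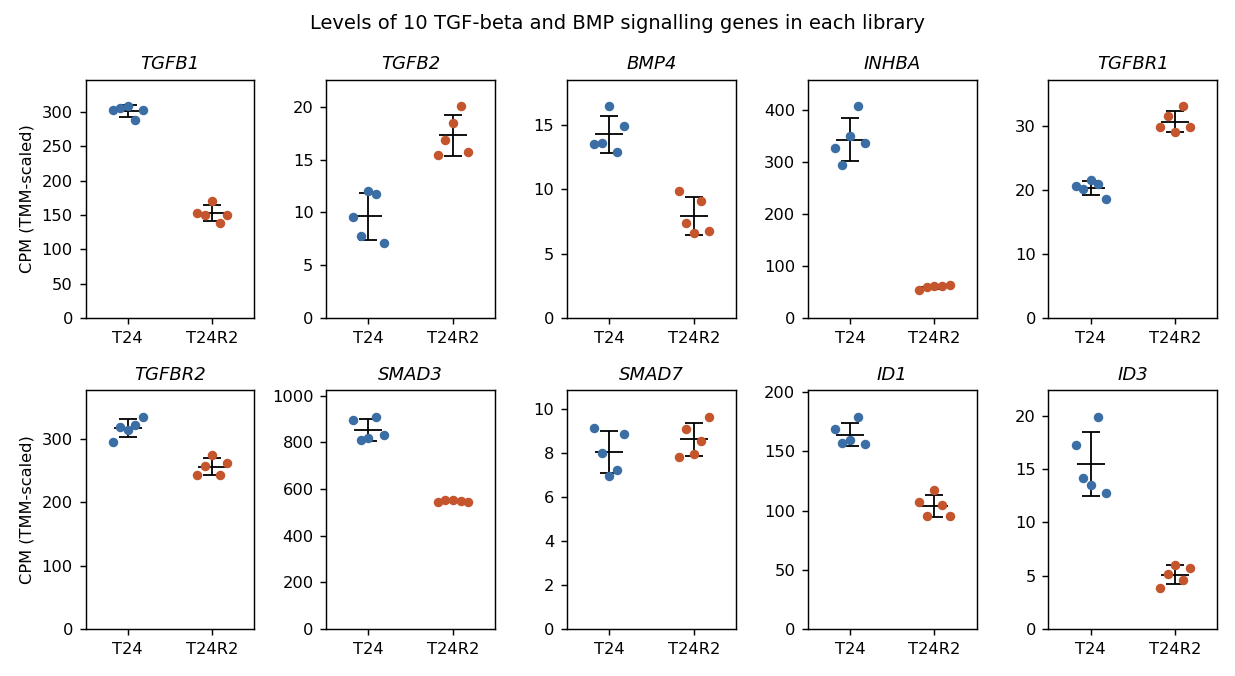
TMM-scaled CPM of each gene in the 5 T24 and 5 T24R2 libraries (points), with the mean and SD (black bars). Only SMAD7 has overlapping lines, and INHBA falls from 295 to 408 CPM in T24 to between 54.0 and 64.3 CPM in T24R2.

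Among the ligands, INHBA, which encodes the activin A subunit, changed most. It lies at chr7:41667168-41705834 on the minus strand of hg38 (ENSG00000122641.11), and stood at 328, 295, 351, 408 and 336 CPM in T24 replicates 1 to 5 and at 54, 59.2, 61.2, 62.5 and 64.3 CPM in those of T24R2. The highest T24R2 library was far below the lowest T24 library, and replicate 4 was the highest of T24. Mean levels were 344 ± 41.4 CPM in T24 and 60.3 ± 3.95 CPM in T24R2 (SD, n = 5 each), so that T24R2 kept 17.5% of the T24 level. The log2 fold change was −2.51 ± 0.062 (SE), with an adjusted p of 5.5e-31 in edgeR's quasi-likelihood test. Activin A also signals through SMAD3. Its inhibin partner subunit INHA, named after its values were seen, was at 1.12 CPM in T24 and 1.08 CPM in T24R2, with no call.

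TGFB1, the main TGF-beta isoform of these cells, lies at chr19:41301587-41353922 on the minus strand of hg38 (ENSG00000105329.11). It measured 302, 306, 308, 288 and 302 CPM in T24 and 152, 150.2, 170.5, 138 and 150.2 CPM in T24R2, 2 tight groups without overlap. Its mean fell from 301 ± 8.04 to 152 ± 11.5 CPM (n = 5 each, ± SD), and the change on the log2 scale was −0.98 ± 0.048 (SE) with an adjusted p of 3.5e-21 by edgeR. HNRNPUL1, on the opposite strand, shares 215 exon bases with TGFB1 (6.59% of the TGFB1 exons). Its mean raw counts, not scaled to library size, were 3468 in T24 and 3334 in T24R2. They exceeded the mean TGFB1 counts of 2798 and 1650.0, so taking off all of them, as for TGFB2 and BMP4 below, was not possible. Spread evenly along the HNRNPUL1 exons, they would put 111 counts in T24 and 107 in T24R2 on the shared bases.

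TGFB2, a second isoform with the same receptors but a greater need for the co-receptor betaglycan, moved the other way. It lies at chr1:218345336-218444619 on the plus strand of hg38 (ENSG00000092969.12), and measured 9.55, 7.79, 12, 11.7 and 7.13 CPM in T24 and 15.4, 16.9, 18.4, 20.1 and 15.7 CPM in T24R2. The lines did not overlap, although T24 itself spread from 66 to 109 raw counts (160 to 225 in T24R2). The mean went up from 9.64 ± 2.22 to 17.3 ± 1.94 CPM (n = 5 each, ± SD), and the change on the log2 scale was 0.85 ± 0.13 (SE) with an adjusted p of 2e-07 by edgeR. Exons of the antisense gene TGFB2-AS1 overlap 11.4% of TGFB2 exons, and the log2 ratio of means was 0.85 as counted and 0.88 after all counts of the antisense gene were taken off.

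BMP4, a BMP ligand with roles in urogenital development, lies at chr14:53949736-53958761 on the minus strand of hg38 (ENSG00000125378.16). It measured 13.5, 13.6, 16.4, 12.9 and 14.9 CPM in T24 and 9.91, 7.37, 6.62, 9.09 and 6.79 CPM in T24R2, again with every T24 library above every T24R2 library. Its mean fell from 14.3 ± 1.43 to 7.96 ± 1.47 CPM (n = 5 each, ± SD), and the change on the log2 scale was −0.84 ± 0.13 (SE) with an adjusted p of 3.5e-07 by edgeR. An unnamed gene on the opposite strand overlaps 16.3% of its exons, and taking off all counts of that gene moved the log2 ratio of means from −0.84 to −0.815.

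**Figure D2:**
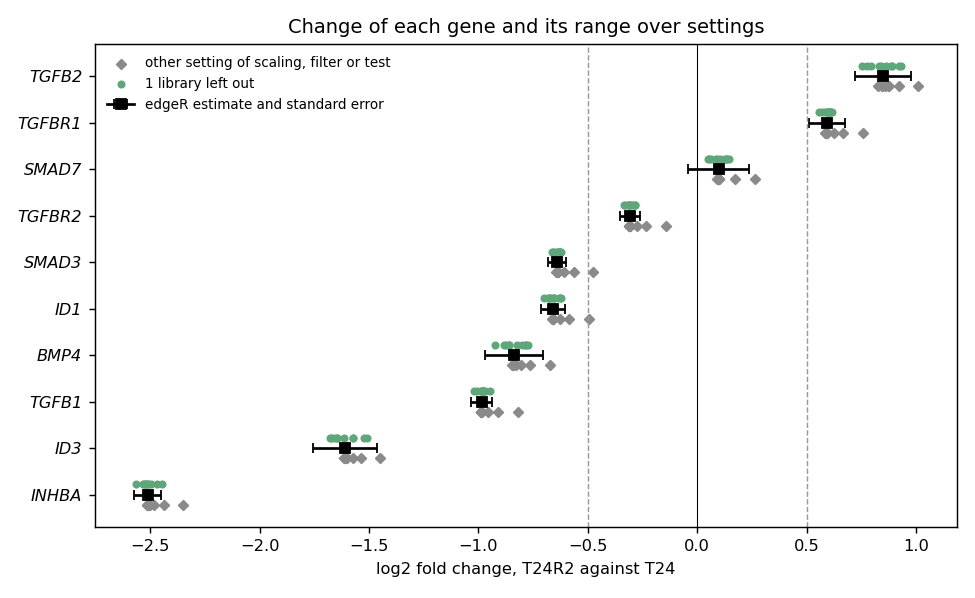
Log2 fold change of T24R2 against T24 for each gene, with the edgeR estimate and its SE (black), the fits without 1 library (green) and the fits under other scalings, filters or tests (grey), and dashed lines at the minimum of 0.5 in each direction. INHBA at −2.51 and ID3 at −1.61 keep their distance from 0 in every fit drawn, whereas SMAD3 and ID1 cross the dashed line in the fit without scaling.

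The promoters of INHBA and TGFB2, the gene that fell most and the gene that rose most, each have 1 annotated start in RefSeq and are shown to set their letters side by side. Below are the 250 bases before the start of INHBA, chr7:41703091-41703340 (minus strand), and of TGFB2, chr1:218345086-218345335 (plus strand), from RefSeq on GRCh38.p14, written 5′ to 3′ on the gene's own strand. Capitals mark matches to the TATA box (TATAAA), the CCAAT box (CCAAT), the SMAD box (CAGAC) and the core of the cAMP response element (TGACGT), each searched on both strands.
INHBA: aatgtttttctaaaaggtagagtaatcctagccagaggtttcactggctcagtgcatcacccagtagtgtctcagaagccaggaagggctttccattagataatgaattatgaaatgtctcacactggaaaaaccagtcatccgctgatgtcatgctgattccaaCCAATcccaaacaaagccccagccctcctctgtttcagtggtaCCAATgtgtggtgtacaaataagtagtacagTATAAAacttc
TGFB2: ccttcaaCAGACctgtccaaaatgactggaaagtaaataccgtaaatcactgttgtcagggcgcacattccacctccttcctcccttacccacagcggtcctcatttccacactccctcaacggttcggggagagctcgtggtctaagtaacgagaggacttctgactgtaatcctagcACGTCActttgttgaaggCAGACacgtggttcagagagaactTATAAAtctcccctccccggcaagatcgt
INHBA holds CCAAT boxes 85 and 42 bases before its start and a TATA box 11 bases before it, with a GC content of 42.8%, and no SMAD box. TGFB2 holds SMAD boxes 243 and 53 bases before its start, a response element core at 71 bases on the reverse strand and a TATA box at 29 bases, with a GC content of 50.4%. Over 35116 promoter windows of the same length, 38% held a SMAD box, 32% a CCAAT box, 10.7% a TATA box and 7.1% the response element core. A match describes the letters of the window and is no measure of binding, and bases further upstream were not searched. In the gene models of the tables the INHBA window lies inside an intron of a longer transcript.

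The receptors moved less and in opposite directions. TGFBR1, the type I receptor that phosphorylates SMAD2 and SMAD3, lies at chr9:99104038-99154192 on the plus strand of hg38 (ENSG00000106799.13), and measured 20.6, 20.1, 21.5, 20.9 and 18.6 CPM in T24 and 29.8, 31.5, 29.1, 33.1 and 29.9 CPM in T24R2. All T24R2 libraries lay above all T24 libraries, and the mean went up from 20.3 ± 1.1 to 30.7 ± 1.60 CPM (n = 5 each, ± SD), and the change on the log2 scale was 0.59 ± 0.082 (SE) with an adjusted p of 3e-08 by edgeR. TGFBR2, the type II receptor that binds the ligand first, lies at chr3:30606601-30694142 on the plus strand of hg38 (ENSG00000163513.19). It measured 296, 319, 315, 322 and 335 CPM in T24 and 243, 258, 276, 243 and 263 CPM in T24R2, so the lines were apart by a small margin. Its mean was 317 ± 14.3 CPM in T24 and 256 ± 13.8 CPM in T24R2 (n = 5 each, ± SD), and the change on the log2 scale was −0.31 ± 0.045 (SE). The edgeR adjusted p was 1.2e-07, but the size stayed under the minimum of 0.5, and TGFBR2 was not called.

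SMAD3, which carries the TGF-beta and activin signal to DNA, was the most abundant of the 10 in fragments. It lies at chr15:67063763-67195173 on the plus strand of hg38 (ENSG00000166949.17), and measured 895, 809, 819.5, 908 and 833 CPM in T24 and 543, 552, 553, 549.7 and 542 CPM in T24R2. The T24R2 libraries were nearly equal, with an SD of 0.928% of the mean against 5.35% in T24. The mean fell from 853 ± 45.6 to 548 ± 5.09 CPM (n = 5 each, ± SD), and the change on the log2 scale was −0.64 ± 0.041 (SE) with an adjusted p of 3.5e-17 by edgeR. Without scaling beyond library size it was −0.48, still lower but under the minimum, while the median of all genes stood at 0.18 on that scale.

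SMAD7, which recruits ubiquitin ligases to the type I receptor and is itself a target of SMAD3, did not move detectably. It lies at chr18:48919853-48950965 on the minus strand of hg38 (ENSG00000101665.10), and measured 9.13, 8.0, 6.97, 7.21 and 8.86 CPM in T24 and 7.80, 9.10, 7.97, 8.55 and 9.64 CPM in T24R2. The ranges overlapped, with means of 8.03 ± 0.962 and 8.61 ± 0.770 CPM (SD, n = 5 each). The log2 fold change was 0.10 ± 0.14 (SE), with an adjusted p of 0.527 by edgeR and an exact two-sided permutation p of 0.317. At this depth, SMAD7 drew 61 to 88 counts per T24 library and 83 to 105 per T24R2 library, which limits how small a difference could be detected.

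Both response genes fell. ID3 lies at chr1:23557926-23559501 on the minus strand of hg38 (ENSG00000117318.9), and measured 17.2, 14.2, 13.5, 19.9 and 12.7 CPM in T24 and 3.85, 5.2, 6.05, 4.63 and 5.70 CPM in T24R2. Even its lowest T24 library was above the highest T24R2 library, and T24 replicate 4, which was also the highest for INHBA, ID1 and SMAD3, was the highest. The mean fell from 15.5 ± 2.99 to 5.09 ± 0.872 CPM (SD, n = 5 each), to 32.8% of T24, with a log2 fold change of −1.61 ± 0.15 (SE) and an adjusted p of 1.1e-12 by edgeR, on 118 to 185 counts in T24 and 42 to 63 in T24R2. ID1 lies at chr20:31605283-31606515 on the plus strand of hg38 (ENSG00000125968.9), and measured 168, 157, 159, 179 and 156 CPM in T24 and 107, 95.2, 118, 104 and 95.6 CPM in T24R2, without overlap. Its mean fell from 164 ± 9.70 to 104 ± 9.23 CPM (n = 5 each, ± SD), and the change on the log2 scale was −0.66 ± 0.054 (SE) with an adjusted p of 6.2e-14 by edgeR. Without scaling beyond library size the ID1 value was −0.50, just under the minimum. ID2, a close relative named after its values were seen, was at 1.24 CPM in T24 and 1.60 CPM in T24R2 without a call, and ID4 had 0 counts in every library, which allows up to 3 counts per library.

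The promoters of these response genes, which fell together, are given in the same way: 250 bases before the single RefSeq start of ID1, chr20:31605039-31605288 (plus strand), and of ID3, chr1:23559502-23559751 (minus strand), on GRCh38.p14. Capitals mark the same motifs, and in ID1 a TATA box on both strands appears as TTTATAAA and the CCAAT box as its reverse complement ATTGG.
ID1: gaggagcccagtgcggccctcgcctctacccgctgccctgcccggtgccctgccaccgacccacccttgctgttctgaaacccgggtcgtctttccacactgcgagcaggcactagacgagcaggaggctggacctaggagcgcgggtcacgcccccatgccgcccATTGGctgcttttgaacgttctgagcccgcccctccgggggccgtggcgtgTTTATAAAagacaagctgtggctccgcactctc
ID3: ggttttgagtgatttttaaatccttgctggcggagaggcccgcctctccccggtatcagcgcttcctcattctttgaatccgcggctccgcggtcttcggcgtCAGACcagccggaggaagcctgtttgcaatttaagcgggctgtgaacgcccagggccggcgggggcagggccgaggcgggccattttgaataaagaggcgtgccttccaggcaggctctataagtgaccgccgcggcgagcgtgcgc
The last few bases of the ID1 window fall in the first exon of the gene model of the tables. ID1 has its TATA box 31 bases and its CCAAT box 84 bases before the start, with a GC content of 66%. ID3, with a GC content of 62%, has 1 SMAD box, 147 bases before the start, and no match to the TATA box, the CCAAT box or the response element core in this window. Neither window held the GC-rich SMAD site GGCGCC, which 16.4% of the 35116 windows hold, or the AP-1 site TGACTCA, held by 4.2%. Bases further upstream were not searched, so a missing match says nothing about sites outside the window.

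Levels were compared between genes per kilobase of exon (RPKM, here CPM divided by the exon length in kilobases). In T24 the order ran from ID1 (133 RPKM), TGFB1 (92.3) and SMAD3 (85.5) through TGFBR2 (46.3) and INHBA (41.5) to ID3 (10.4), BMP4 (4.61), TGFBR1 (2.98), SMAD7 (2.04) and TGFB2 (1.59). TGFB1 and SMAD3, TGFBR2 and INHBA, and SMAD7 and TGFB2 were neighbours whose libraries overlapped. In T24R2 ID1 was again first (84.3 RPKM), ahead of SMAD3 (54.9), TGFB1 (46.7) and TGFBR2 (37.45), whose libraries were apart from one another. INHBA followed at 7.28 RPKM, and TGFBR1 (4.50) was now above ID3 (3.40), TGFB2 (2.86), BMP4 (2.57) and SMAD7 (2.18), a run in which each of the last 4 overlapped the next.

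**Figure D3:**
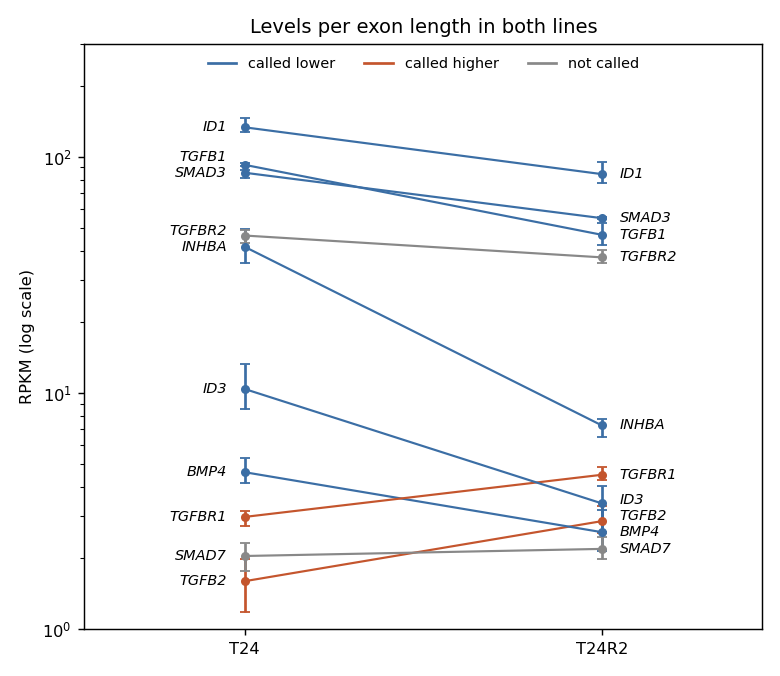
Mean RPKM of each gene in T24 and T24R2 on a log scale, with bars from the lowest to the highest of the 5 libraries of each line, in blue for genes called lower, red for higher and grey for not called. INHBA drops from 41.5 to 7.28 RPKM, while ID1 stays first in both lines.

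Balances within the pathway shifted accordingly. TGFB1 made up 98.1% ± 0.367 of the summed RPKM of TGFB1, TGFB2 and TGFB3 in T24 and 93.9% ± 0.801 in T24R2, TGFB2 made up 1.70% ± 0.403 and 5.78% ± 0.834 (SD, n = 5 each), and the sum fell from 94.1 to 49.7 RPKM. TGFB3, named after its values were seen, made up at most 0.424% of the sum in any library. The RPKM ratio of TGFBR2 to TGFBR1 was 15.6 ± 1.46 in T24 and 8.36 ± 0.788 in T24R2, with no overlap between 14.3 at the lowest T24 library and 9.44 at the highest T24R2 library. In RPKM, SMAD3 exceeded SMAD2 by a factor of 51.4 ± 2.47 in T24 and 25.15 ± 1.42 in T24R2, and SMAD7 by a factor of 42.45 ± 5.44 and 25.3 ± 2.27. The factor over SMAD2 depends on the exon lengths used, 36426 bases for SMAD2 and 9981 for SMAD3, which pool all annotated exons. Before division by length, SMAD2 was at 60.6 CPM in T24 and 79.7 CPM in T24R2, beside 853 and 548 CPM for SMAD3. The ratio of ID1 to ID3 rose from 13.1 ± 1.66 to 25.45 ± 5.32, and that of INHBA to BMP4 fell from 9.08 ± 1.58 to 2.92 ± 0.628. These ratios restate the levels above and carry no test of their own.

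Each gene was also set beside the other tested genes within 2 Mb. The counts of called neighbours stand beside shares of 24.9% higher and 26.5% lower over all tested genes. TGFB2 rose with its surroundings: the median log2 fold change of its 12 neighbours was 0.67, with 9 called higher and 0 lower, beside 0.09 for chromosome 1 as a whole. SMAD3 went against its surroundings, since it fell by 0.64 on the log2 scale while its 38 neighbours had a median of 0.61, with 20 called higher and 3 lower. ID3 lay in a stretch of 47 genes with a median of −0.46 (7 higher, 23 lower), and ID1 on chromosome 20, whose median was −0.44, among 23 genes with a median of −0.29 (5 higher, 9 lower). INHBA had 10 neighbours with a median of −0.38 (3 higher, 3 lower) and fell much further than that median. The neighbours of TGFB1 had a median of 0.09 (74 genes, 17 higher and 24 lower) and those of BMP4 −0.02 (29 genes, 5 higher and 6 lower). For TGFBR1 the median was 0.16 (28 genes, 4 higher and 6 lower) and for TGFBR2 0.25 (12 genes, 5 higher and 2 lower). The neighbours of SMAD7 had a median of 0.40 (19 genes, 7 higher and 1 lower) beside a log2 fold change of 0.10 for SMAD7 itself. Copy number was not measured in these libraries.

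**Figure D4:**
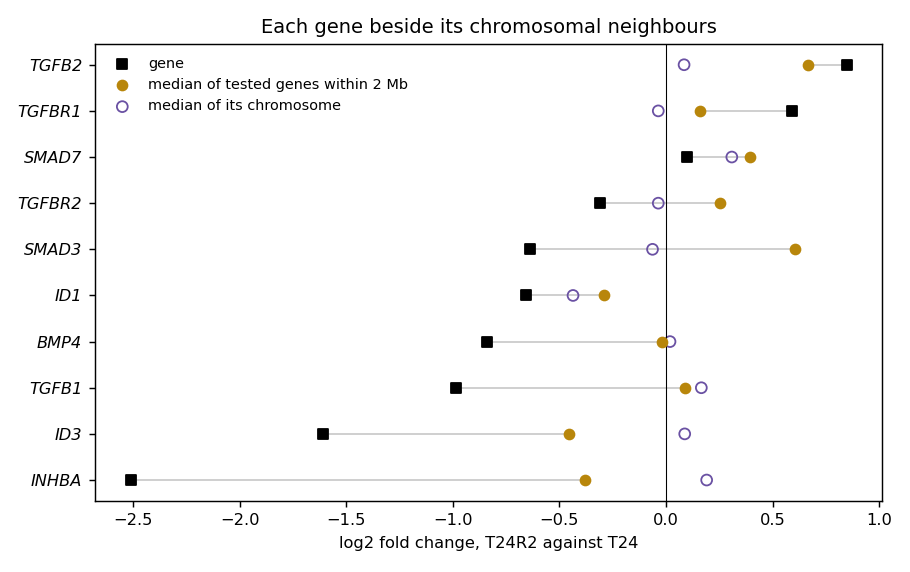
Log2 fold change of each gene (black squares), the median of the other tested genes within 2 Mb on either side (filled circles) and the median of its chromosome (open circles). SMAD3 at −0.64 lies opposite to its neighbours at 0.61, and TGFB2 at 0.85 lies close to its neighbours at 0.67.

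Around these 10 genes, 142 further pathway genes were listed by role. Of these 98 were tested, 44 had too few counts, and 64 were called (65.3%, all genes 51.4%). Calls were higher for 17 and lower for 47 (all genes 24.9% and 26.5%). The median log2 fold change of the 98 was −0.335 beside 0.015 over all genes. Genes with almost no counts in 1 line passed the filter only through the other line: T24 for ACVRL1, BMPR1B, LRRC32 and DLX2, T24R2 for LDLRAD4. Their direction was set by that filter, here and in the lists below, and lends no support to the counts. With a mean of at least 100 counts, 33 of the listed genes were called lower and 16 higher. Among the other TGF-beta, activin and nodal ligands, 3 of 6 tested of 14 fell and 0 rose (all genes 26.5% and 24.9%). The largest falls were those of GDF15, a stress-induced cytokine of the family (−6.29, from 61.7 to 0.787 CPM), and GDF11, a relative of myostatin (−2.19, from 23 to 5.02 CPM). Of the BMP ligands other than BMP4, 4 of 15 were tested, and 2 fell and 1 rose (all genes 26.5% and 24.9%). BMP6, an inducer of hepcidin in iron control, was lower (−1.18, from 24.4 to 10.7 CPM), and AMH, the anti-Muellerian hormone, was higher (2.46, from 3.54 to 19.4 CPM). AMHR2, the type II receptor of AMH, named after its values were seen, had 0 or 1 counts in every library.

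Of the genes listed under latency and activation of TGF-beta, 11 of 15 were tested, and 8 fell and 2 rose (all genes 26.5% and 24.9%). The median of the 11 was −0.96 beside 0.015 over all genes. LRRC32, which tethers latent TGF-beta at the cell surface, was at 18.9 ± 1.46 CPM in T24 (SD, n = 5) and at 0 to 2 counts per library in T24R2, at least 63.9-fold lower against a floor of 3 counts per library. ITGB8, the partner of the integrin alpha-v chain that frees TGF-beta from its latent complex, fell by 3.22 on the log2 scale, from 82.2 to 8.77 CPM. The alpha-v chain itself, ITGAV, rose (0.88, from 200.5 to 367.7 CPM). LTBP2, a fibrillin-associated matrix protein of the latent TGF-beta binding family, fell by 1.69, from 196 to 60.8 CPM. LTBP1 (−1.63), LTBP3 (−0.77) and LTBP4 (−0.91) of that family were also called lower. ITGAV and these last genes were named after their values were seen. Of the type I and type II receptors other than TGFBR1 and TGFBR2, 8 of 10 were tested, and 3 fell and 1 rose, against the same shares over all genes. ACVRL1, a type I receptor typical of endothelium, was at 2.52 ± 0.953 CPM in T24 and 0 counts in every T24R2 library, at least 8.53-fold lower. In the same libraries the endothelial marker CDH5 ran from 239 CPM in T24 to 0.559 CPM in T24R2. Of the other endothelial markers, PECAM1 was at 5.36 and 1.18 CPM and VWF at 0.449 and 0.133 CPM, with KDR and TEK at the floor in both lines. The part of endothelial transcripts in the ACVRL1 difference was not tested. BMPR1B, a BMP type I receptor, fell (−3.21, from 2.32 to 0.242 CPM, on 1 to 5 counts in T24R2), ACVR1B, an activin type I receptor, fell (−0.58, from 22.8 to 15.3 CPM, and −0.42 and not called without scaling), and ACVR1, which serves BMP and activin, rose (0.53, from 19.2 to 27.8 CPM, but not called at 0.50 without T24 replicate 3). The others were not called: BMPR1A had a log2 fold change of −0.16, BMPR2 of −0.05, ACVR2A of 0.08 and ACVR2B of 0.47, and ACVR2B passed the minimum, at 0.54, without T24R2 replicate 3.

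In the list of co-receptors and the pseudoreceptor BAMBI, all 6 tested genes were called (all genes 51.4%). The co-receptors, 5 in number, were lower, and BAMBI was the 1 higher gene (all genes 26.5% and 24.9%). Betaglycan, encoded by TGFBR3, fell (−1.54, from 15.5 to 5.34 CPM), as did TGFBR3L, an inhibin co-receptor (−3.30, from 7.16 to 0.715 CPM), and ENG, the endothelial co-receptor endoglin, named after its values were seen (−0.999, from 136 to 68.1 CPM). BAMBI, a pseudoreceptor without a kinase domain that dampens the signal, rose (2.86, from 0.784 to 5.71 CPM).

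All 6 of the other SMADs were tested, and 1 rose and 2 fell (all genes 24.9% and 26.5%). SMAD1, a BMP transducer, rose (0.83, from 23.5 to 41.8 CPM), whereas SMAD9, of the same branch, fell (−2.32, from 3.19 to 0.636 CPM). SMAD6, the inhibitory SMAD of the BMP branch, was called lower at a log2 fold change of −0.57 with an edgeR adjusted p of 0.0399, on 12 to 32 counts per library and with overlapping lines. That call was lost without any of 5 libraries, T24 replicate 3 (adjusted p = 0.089) or 5 (0.079) and T24R2 replicate 1 (0.057), 3 (0.13) or 4 (0.051). SMAD2 at 0.40, SMAD4 at −0.002 and SMAD5 at −0.08 were not called. Of the secreted antagonists 8 of 18 were tested, and 2 rose and 4 fell. FST, follistatin, which neutralizes activin, fell (−5.72, from 73.4 to 1.39 CPM), and FSTL1, a secreted glycoprotein related to it, fell as well (−2.72, from 667 to 101 CPM). NOG, noggin, which sequesters BMPs, rose (2.96, from 11 to 85.8 CPM).

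The 22 intracellular modulators, all tested, were the quietest list, with 3 higher, 4 lower and 15 not called (31.8% called against 51.4% of all genes, median 0.03). LDLRAD4, which holds SMAD2 and SMAD3 away from the receptor, rose (5.90, from 0.354 to 21.3 CPM, on 0 to 7 counts in T24 and 191 to 263 in T24R2), while PMEPA1, a relative with the same action and itself a TGF-beta target, fell (−2.90, from 68.7 to 9.18 CPM). SMURF2, a ubiquitin ligase that SMAD7 brings to the receptor, fell too (−1.18, from 294 to 129.6 CPM). Of the TGF-beta response genes 18 of 19 were tested, and 13 fell and 2 rose (all genes 26.5% and 24.9%), with a median of −1.17 beside 0.015 over all genes. Among those with a mean of at least 5 CPM in 1 line, the largest falls were in ANGPTL4, a secreted regulator of lipoprotein lipase (−6.70, from 35.9 to 0.340 CPM), COL4A1, a basement membrane collagen (−3.70, from 444 to 34 CPM), and CDKN1A, the cell cycle inhibitor p21 (−2.93, from 97.7 to 12.8 CPM). Named after their values were seen, TGFBI, a secreted matrix protein, fell (−1.51, from 65.8 to 23.1 CPM), FN1, fibronectin, rose (1.02, from 8065 to 16390.0 CPM), and CCN2 had a log2 fold change of −0.36, from 406 to 317 CPM, without a call. Several of these genes also answer to other signals, p21 to p53 among them.

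The BMP response genes other than ID1 and ID3 did not move one way: of 9 tested of 13, 4 rose and 3 fell (all genes 24.9% and 26.5%), with a median of 0.36. The homeobox genes MSX2 (2.50, from 1.01 to 5.77 CPM) and MSX1 (2.16, from 6.47 to 28.8 CPM) rose, as did HEY1, a repressor shared with the Notch pathway (2.40, from 4.94 to 26.1 CPM), and, named after its values were seen, RUNX2 (1.18, from 19.5 to 44.3 CPM). DLX2, likewise named after its values were seen, was at 2.69 ± 0.691 CPM in T24 (SD, n = 5) and 0 counts in every T24R2 library, at least 9.10-fold lower. The median of 0.36 is the value of ID2, which had an SE of 0.32 and an edgeR adjusted p of 0.31, without a call. ID1 and ID3, at −0.66 and −1.61, fell, as did 3 of these other genes while 4 rose.

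**Figure D5:**
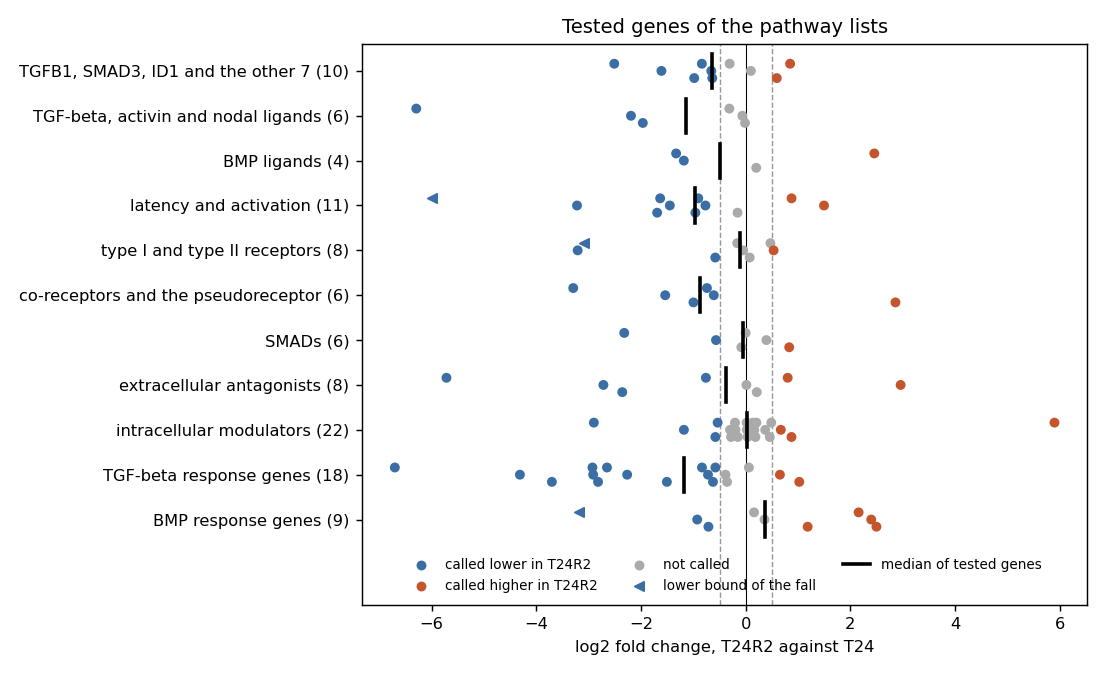
Log2 fold change of every tested gene in the 10 genes described above (top line) and in 10 lists by role, with the number tested in brackets, black bars at the median and triangles at the lower bound for genes at the floor in T24R2. The medians are −1.17 for TGF-beta response genes, 0.36 for BMP response genes and 0.03 for intracellular modulators.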

How the data were processed

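RNA-seq libraries of T24 and T24R2, 5 each, were compared. The deposited files hold raw counts of fragments: the authors aligned reads to hg38 with STAR 2.7.0, kept unique, non-duplicate alignments with SAMtools 1.10 and counted on GENCODE release 39 with featureCounts 2.0.1, with strand option 1. The kit is not described as keeping strand, so reads of overlapping genes on opposite strands may not have been told apart. Duplicates were removed by position, and floors cover counting error only. Of 61533 genes, 61369 were matched to a symbol, and 0 rows lacked an identifier.

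Counts were filtered with filterByExpr, scaled by TMM and tested in R 4.3.3 with edgeR 4.0.16 (glmQLFit, glmQLFTest, Benjamini-Hochberg over 16181 genes). The study's thresholds were used. TMM factors were 0.936 to 0.951 in T24 and 1.04 to 1.07 in T24R2. CPM use TMM-scaled library sizes, and RPKM divide them by the exon length in the tables. The floor of a line was set at 3 counts per library. Exact permutation tests used SciPy 1.17.1, exon overlaps bedtools 2.31.1, other steps Python 3.11.15, numpy 2.4.6 and pandas 2.3.3, and plots matplotlib 3.10.9. Promoter sequences came from RefSeq (GRCh38.p14), with 35116 windows of 250 bases searched. The steps were tested on simulated counts with few or no changed genes, balanced between higher and lower. Those simulations do not cover a comparison with as many called genes as here, or the choice of scaling.

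Named genes are the 10 genes, every tested receptor and SMAD, and up to 3 called genes with the largest absolute log2 fold change in each other list with a mean of at least 5 CPM in 1 line. The 10 genes, the lists and the tests were chosen with earlier results of these data known. The 21 alternatives were DESeq2 1.42.0 with and without shrinkage, limma 3.58.1 (voom), no scaling, upper-quartile scaling, no filter, a filter at a mean of 100 counts, a block for the replicate number, removal of genes overlapped from the opposite strand over more than 10% of their exons, other fold minimums and leaving out each library. The results of some genes in the lists are not reported here. MeRIP-seq and the other assays of the study were not analysed here.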

Additional observations from a re-analysis of the deposited data

Results flagged for a closer look

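The check for outlying libraries took 104 groups of 5 libraries, covering 53 of the genes named above. In 4 groups the highest or lowest library was separated from the rest by more than Dixon's 95% critical value of 0.71 (gap over range). Chance gives about 5.2 such groups. None of them was among the 10 genes. TGFBR3 was at 18.1 CPM in T24 replicate 4 and at 14.8 to 15.05 CPM in the other T24 libraries. FSTL1 was at 89.55 CPM in T24R2 replicate 1 and at 104 to 105 CPM in the others. FN1 was at 9208 CPM in T24 replicate 4, with 7592 to 7994 CPM in the others, and at 18490.0 CPM in T24R2 replicate 3, with 15400.0 to 16270.0 CPM in the others. Leaving out any 1 library kept each of these genes called, with log2 fold changes of −1.56 to −1.48 for TGFBR3, −2.74 to −2.67 for FSTL1 and 0.98 to 1.07 for FN1.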

How the results depend on the processing

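Of the 10 genes, 8 were called (2 higher, 6 lower) without each library in turn, with limma-voom, both DESeq2 fits, no count filter and upper-quartile scaling. Without scaling beyond library size 6 were called, beside 8637 of 16181 tested genes, and SMAD3 (−0.48) and ID1 (−0.50) were not. With an absolute log2 fold change over 1, 2 of the 10 genes were called (0 higher, 2 lower), 40 of the other pathway genes (10 higher, 30 lower) and 4211 of all genes (1918 higher, 2293 lower). With no minimum, 9 of the 10 genes were called, beside 12212 of 16181 tested genes (6128 higher, 6084 lower). With a mean of at least 100 counts, 10686 genes were tested and 4991 called (2350 higher, 2641 lower). ID3 and SMAD7 fell under that mean and left the fit, and 7 of the 10 genes were called. Of the other pathway genes, 49 were called there (16 higher, 33 lower). Without genes overlapped from the opposite strand TGFB2 and BMP4 left the fit. Of the 10 genes 1 was then called higher and 5 lower, beside 6475 of 12345 tested genes called. Leaving out 1 library gave 65 to 67 other pathway genes. Some small, uncalled changes turned sign: BMPR1A (0.001), BMPR2 (0.12) and SMAD5 (0.08) without scaling, BMPR2 (0.027) with upper-quartile scaling, and ACVR2A (−0.01 to 0.21 without 1 library). SMAD4 was at 0.001 with limma-voom, 0.028 with a mean of at least 100 counts, 0.16 without scaling, 0.072 with upper-quartile scaling and −0.039 to 0.042 without 1 library. SMAD2 (0.56) without scaling, and ACVR2B without scaling (0.64), with upper-quartile scaling (0.55) and with a mean of at least 100 counts (0.50), came to be called. SMAD6 lost its call with no count filter, without scaling and with upper-quartile scaling (adjusted p = 0.067, 0.14 and 0.074 by edgeR). The cause of these changes was not tested.

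The replicate numbers did not pair the libraries: deviations from the line means of same-numbered libraries correlated at 0.002 to 0.06, and those of different numbers at up to 0.087. With the replicate number as a block 8 of the 10 genes were called (2 higher, 6 lower), 63 other pathway genes and 8240 of all genes (3979 higher, 4261 lower), SMAD4 was at 0.000, and the adjusted p of SMAD6 was 0.059.

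Depth limits the low genes: SMAD7, TGFB2, BMP4 and ID3 in T24R2 rest on few fragments per library, and genes at the floor have only a bound.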

Other observations

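Several ligands and antagonists that act on the same receptors gave almost no fragments in either line. BMP7, BMP5, GDF2, GDF6, LEFTY2 and the antagonist GREM1 had 0 counts in every library, which allows up to 3 counts per library, and NODAL had 0 to 4 counts in T24 and 0 to 3 in T24R2. BMP2, a close relative of BMP4, had 7 to 18 counts in T24 and 0 to 8 in T24R2, under the filter on low counts. ITGB6, another integrin chain that activates latent TGF-beta, had 1 to 6 counts in T24 and 0 to 1 in T24R2. MSTN, myostatin, was at 0 to 1 counts in T24 and 3 to 10 in T24R2. These genes were chosen after their values were seen and were not tested.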
